A study of Homo sapiens with 6 samples.

Results

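The replication-dependent histone genes were taken as all genes of the deposited table whose symbol starts with HIST1H, HIST2H, HIST3H or HIST4H, with pseudogenes left out. This gave 52 of 23013 genes, 5 of class H1, 13 of H2A, 15 of H2B, 9 of H3 and 10 of H4. Their RNA was measured by RIP-seq, in which a protein is pulled out of a native lysate and the RNA that comes with it is sequenced, in nuclei of HCT116, a human colorectal cancer cell line that was untreated and not synchronised. The 3 inputs were nuclear RNA taken without antibody, and the 3 ORC1 IPs were the RNA that came down from nuclear lysate with an antibody to endogenous ORC1, a subunit of the complex that marks origins of DNA replication. All 6 libraries were made from total RNA depleted of ribosomal RNA, and the labels number them as RIP replicates 1 to 3. Values given per library below are always in the order of replicates 1, 2 and 3. All came from this 1 cell line, and no library from a control antibody was analysed here. The question was how the RNA of each histone class was represented in the ORC1 IP relative to nuclear input.

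Replication-dependent histone genes supply the core histones H2A, H2B, H3 and H4 and the linker histone H1 that package newly made DNA. They are transcribed mainly in S phase, have no introns, and end in a conserved stem-loop in place of a poly(A) tail. The stem-loop is bound by SLBP, which acts in processing, translation and decay of these mRNAs. A few of these genes also make polyadenylated mRNA. Because the cells were measured in bulk, an input value cannot tell fewer nuclei with histone mRNA from less histone mRNA per nucleus. The fold changes below compare ORC1 IP with nuclear input and measure neither.

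The stem-loop is shown first because it is what the members share and what separates H4 from the other classes. It was searched in the canonical transcript of each gene in GENCODE v44 (GRCh38), on the strand of the transcript, as GGNNNNTTTNNNNNCC in which the last 6 bases are the reverse complement of the first 6. It was found in 49 of 52 members. Of 19701 protein-coding canonical transcripts, a set that includes the members, 91 (0.462%) held it. All 52 canonical transcripts have 1 exon, and coordinates below are GRCh38. HIST1H2AG, HIST1H2AK and HIST1H3E had no match in the annotated transcript. All 10 H4 members had 1 stem and all 39 other members with a match had another, so no stem was shared between H4 and the rest. In the sequences below, the 4 loop bases are in capitals and the stem is in lower case. They lie at chr6:26104317-26104332, plus strand (HIST1H4C), chr6:27831178-27831193, minus strand (HIST1H4K), chr6:26031597-26031612, minus strand (HIST1H3B), chr6:26157095-26157110, plus strand (HIST1H1E), and chr6:26158587-26158602, plus strand (HIST1H2BD), all in the 3′ UTR.
HIST1H4C: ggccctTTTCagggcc
HIST1H4K: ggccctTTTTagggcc
HIST1H3B: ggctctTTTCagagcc
HIST1H1E: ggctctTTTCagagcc
HIST1H2BD: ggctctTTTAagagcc

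Averaged over the replicates, histone RNA was lower in the ORC1 IPs than in the inputs, with the lowest fold changes in H4 and H3 and the highest in H1. After genes with a mean normalised count under 10 were left out, 48 members were tested among 16513 genes with limma on log2(normalised count + 1) and Benjamini-Hochberg adjustment. At an adjusted p under 0.05, 19 of 48 members were lower in the ORC1 IPs, against 1.42% of all genes tested. No member was called higher in limma, against 2.28% of all genes, nor in edgeR or DESeq2. At an unadjusted limma p under 0.05, 35 members were lower and 0 higher, against 9.45% and 12.2% of all genes. The fitted log2 fold change was negative for all 48 members, with a median of -1.85 and a range from -3.95 to -0.56, whereas the median over all genes tested was 0.01. For 27 members every ORC1 IP value was below every input value, against 13.5% of all genes. Within the labelled replicates, the median log2 ratio of ORC1 IP to input over members was -0.20, -3.14 and -2.50. The ORC1 IP was the lower of the 2 for 28, 47 and 48 members, against 8282, 8209 and 7916 of 16513 genes. In replicate 1 this held for 0 of 4 H1 members (median 1.68) and 3 of 15 H2B members (median 0.56). It held in all 3 replicates for 27 members, against 3176 of all genes tested.

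The calls were unevenly spread over the classes. All 9 tested H4 members and 7 of 8 tested H3 members were called lower, whereas 2 of 12 H2A members, 1 of 15 H2B members and 0 of 4 H1 members were. At an unadjusted limma p under 0.05, 9 H4, 8 H3, 10 H2A, 8 H2B and 0 H1 members were lower, against 9.45% of all genes. In H1, edgeR and DESeq2 also called 0. The split depended on the tool: DESeq2 called 8 H4, 8 H3, 8 H2A and 4 H2B members lower (28 in all, against 2.94% of all genes in that fit). With the RIP replicate as a block, by which the labels tie each ORC1 IP to its input, edgeR called 8 H4, 3 H3, 0 H2A and 0 H2B members (11 in all), and limma 8, 6, 2 and 1. The median log2 fold change was -3.17 for H4, -2.49 for H3, -1.81 for H2A, -1.53 for H2B and -0.87 for H1. The order of these medians was the same in all 18 fits, which were the main one, 11 other settings and 6 with 1 library left out. The differences between classes were not tested themselves. The count of 19 members rested on single libraries: it was 6 without input 2, 2 without input 3 and 3 without ORC1 IP 3, and over all genes the lower calls then went from 234 to 39, 23 and 23. It was 24 without ORC1 IP 1 and 25 without ORC1 IP 2, where the lower calls over all genes were 119 (0.721%) and 1053 (6.38%).

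**Figure D1:**
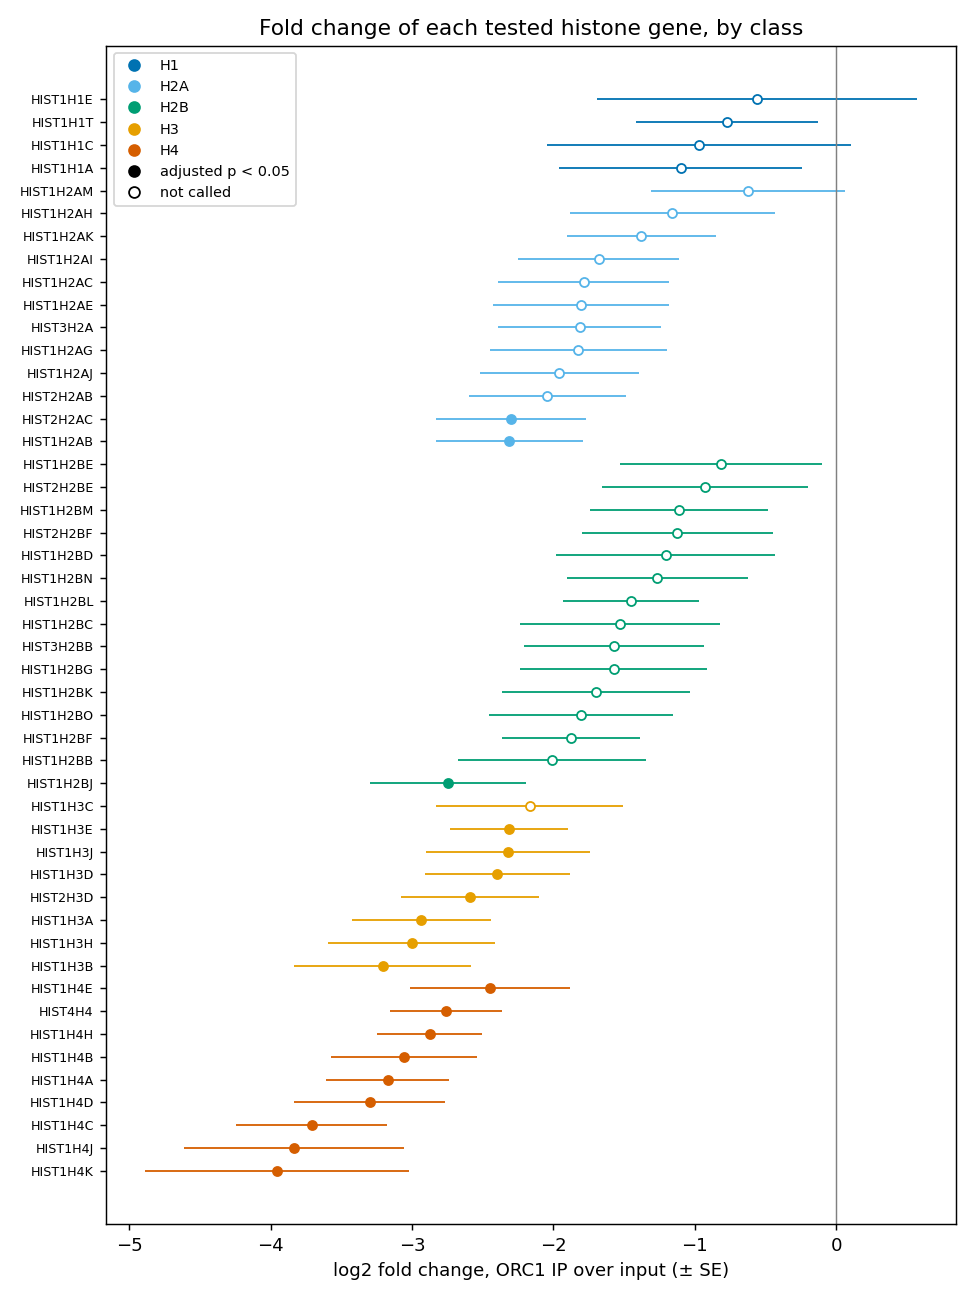
Each point is 1 of the 48 tested histone genes, with its log2 fold change of ORC1 IP over input (limma) on the horizontal axis and bars of ± SE. Filled points have an adjusted p under 0.05. All points lie below 0, from -0.56 for HIST1H1E to -3.95 for HIST1H4K, and the filled points are mostly H3 and H4.

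The level of histone RNA also varied within each group. Histone counts summed to 1.33%, 3.52% and 2.51% of all normalised counts in the inputs and to 1.28%, 0.565% and 0.413% in the ORC1 IPs. The mean was 2.46% ± 1.10 for the inputs and 0.751% ± 0.461 for the ORC1 IPs (SD, n = 3), with ORC1 IP 1 just under the lowest input. On the scale of the tests, the same counts summed to 242921, 760889 and 483650 in the inputs and to 385321, 82403 and 110825 in the ORC1 IPs. ORC1 IP 1 was thus above input 1 on this scale and below it as a share of the library, whereas ORC1 IPs 2 and 3 were below all inputs on both. Epithelial markers chosen to check the cell line, 8 of 10 of which had a mean of at least 10, moved with these sums. Their counts, mostly KRT8, KRT18 and KRT19, added up to 50175, 140344 and 78665 in the inputs and to 146525, 18222 and 71777 in the ORC1 IPs. As for the histones, input 2 was the highest input, ORC1 IP 1 the highest ORC1 IP. NEAT1 and MALAT1, which are nuclear RNAs, followed another order, with summed counts of 36113, 39471 and 16094 in the inputs and 28782, 120924 and 12106 in the ORC1 IPs, so that ORC1 IP 2 stood apart. The part of this variation in the histone values was not tested. Of 10 markers of other cell types, 3 had a mean of at least 10 (ACTA2, COL1A1 and VWF), and their summed counts were between 200.2 and 863 in the 6 libraries. Recovered reads per library ranged from 13703033 to 36008733.

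**Figure D2:**
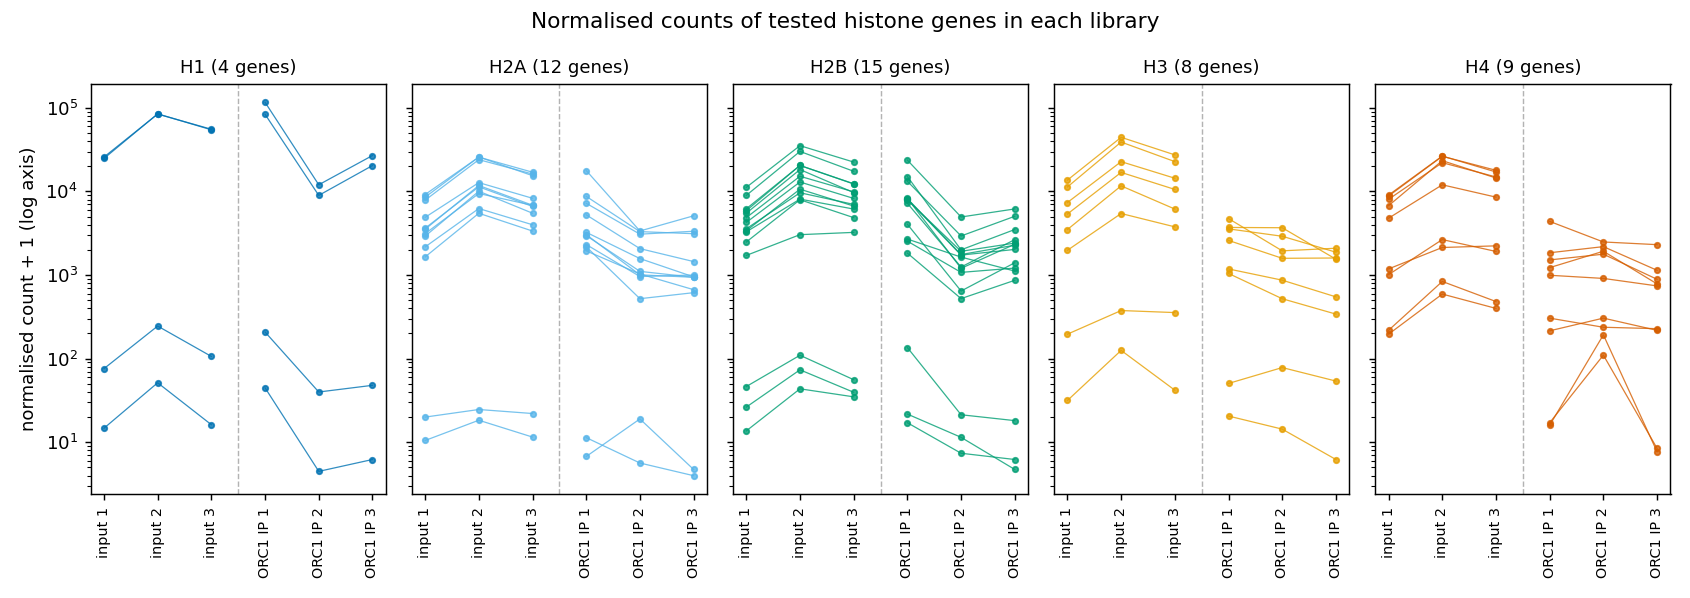
Normalised count + 1 on a log axis in each of the 6 libraries, with 1 panel per class. Each line joins the values of 1 gene within a group, and the dashed line separates inputs from ORC1 IPs. Input 2 is the highest input for most genes, and ORC1 IP 1 reaches input levels in H1 and most of H2B but stays below all inputs in H3 and H4.

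H4, with H3 the core of the nucleosome, was the class with the lowest median fold change, and none of its 9 tested members overlapped between groups. HIST1H4C (now H4C3, chr6:26103933-26104337, plus strand), the H4 gene with the most input RNA per kb of transcript, had normalised counts of 8812, 26303 and 17885 in the inputs and 1225, 1924 and 782 in the ORC1 IPs. Its log2 fold change was -3.71 ± 0.54 (SE, adjusted p = 0.00799), and the IP values were low in all 3 replicates. HIST1H4A (now H4C1, chr6:26021649-26022050, plus strand) had 4784, 11996 and 8543 in the inputs and 993, 909.8 and 740.0 in the ORC1 IPs, with a log2 fold change of -3.17 ± 0.43 (SE, adjusted p = 0.00565). HIST1H4H had 1183, 2134 and 2233 in the inputs and 214, 304 and 217 in the ORC1 IPs, with a log2 fold change of -2.87 ± 0.37 (SE, adjusted p = 0.00406). HIST1H4A and HIST1H4H were the only members called lower in each of the 6 fits that left out 1 library, and HIST1H4H was picked out for that reason after its values were seen.

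The other H4 genes with high counts gave like values. HIST1H4B had a log2 fold change of -3.06 ± 0.52 (SE, adjusted p = 0.0113) and HIST1H4D one of -3.30 ± 0.53 (SE, adjusted p = 0.0107). HIST1H4E was the H4 member with the smallest difference, with 9038, 26483 and 17079 in the inputs and 4379, 2484 and 2307 in the ORC1 IPs and a log2 fold change of -2.45 ± 0.56 (SE, adjusted p = 0.0371). Its ORC1 IP 1 value was the nearest to the inputs among these genes, and its call was lost with the replicate block in limma (adjusted p = 0.069) and in edgeR (0.114). HIST4H4, the only member on chromosome 12, had 1009.8, 2654 and 1913 in the inputs and 304, 236 and 227 in the ORC1 IPs, with a log2 fold change of -2.76 ± 0.40 (SE, adjusted p = 0.00799), and its ORC1 IPs were close to each other.

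HIST1H4K and its near-copy HIST1H4J had the lowest fold changes of all members in limma, but uneven ORC1 IPs. HIST1H4K had 217, 837 and 481 in the inputs and 14.97, 192 and 6.71 in the ORC1 IPs, with a log2 fold change of -3.95 ± 0.93 (SE, adjusted p = 0.04). HIST1H4J had 195, 591 and 398 in the inputs and 16.1, 109 and 7.45 in the ORC1 IPs, with a log2 fold change of -3.83 ± 0.78 (SE, adjusted p = 0.0239). In both genes ORC1 IP 2 was the highest ORC1 IP but still below the lowest input, and ORC1 IPs 1 and 3 were far below. Of the stretches of 50 nt in these transcripts, 92.6% and 92.1% also occurred in transcripts of another gene, so their reads could be split or shared between copies and the counts are uncertain. HIST1H4K was called lower in 1 of the 6 fits that left out a library, the one without ORC1 IP 2, and its call was also lost with total count scaling (adjusted p = 0.085), in edgeR (0.097) and in DESeq2 (0.172). Its log2 fold change was -2.76 in edgeR and -2.84 in DESeq2, where HIST1H4C, at -3.73 and -3.75, was lower. The call of HIST1H4J was lost with total count scaling, and without input 2, input 3 or ORC1 IP 3. The number of H4 members called lower was 8 without input 1, 5 without input 2, 2 without input 3, 8 without ORC1 IP 1, 9 without ORC1 IP 2 and 3 without ORC1 IP 3. Of all genes, 0.999%, 0.236%, 0.139%, 0.721%, 6.38% and 0.139% were called lower in these fits, in the same order.

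H3 members were next. HIST1H3B (now H3C2, chr6:26031589-26032099, minus strand), with the most H3 input RNA per kb, had 13665, 44382 and 27352 in the inputs and 3706, 3678 and 1545 in the ORC1 IPs, a log2 fold change of -3.21 ± 0.63 (SE, adjusted p = 0.0213). HIST1H3H had 11311, 38949 and 22728 in the inputs and 3564, 2908 and 1874 in the ORC1 IPs, a log2 fold change of -3.003 ± 0.59 (SE, adjusted p = 0.0226). HIST1H3A had 3499.9, 11654 and 6153 in the inputs and 1181, 867 and 547 in the ORC1 IPs, a log2 fold change of -2.93 ± 0.49 (SE, adjusted p = 0.0113). In these 3 genes the highest ORC1 IP value was well under the lowest input. HIST1H3D (-2.40, adjusted p = 0.029) shared 96.5% of its 50-nt stretches with transcripts of other genes and HIST1H3J (-2.32, adjusted p = 0.0478) shared none. The call of HIST1H3J was lost in edgeR (adjusted p = 0.054), and with the replicate block in limma (0.0776) and edgeR (0.129). In edgeR with the block, HIST1H3B (0.0745), HIST1H3H (0.0768) and HIST1H3D (0.0747) lost theirs too. The call of HIST1H3E was lost with total count scaling.

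HIST1H3C was the 1 tested H3 member that limma did not call, and DESeq2 called it (adjusted p = 0.00863). It had 30.6, 125 and 41.0 in the inputs and 19.6, 13.4 and 5.22 in the ORC1 IPs, and its log2 fold change was -2.17 ± 0.66 (SE, adjusted p = 0.0848). Its values too did not overlap between groups, as in all 8 tested H3 members. Of the H3 members called, HIST2H3D (-2.59, adjusted p = 0.0181) and HIST1H3E (-2.31, adjusted p = 0.0157) complete the 7. HIST1H3E was measured at 195 to 375 in inputs and at 49.5 to 77.2 in ORC1 IPs. Without input 3 or without ORC1 IP 3, 0 H3 members were called, against 0.139% of all genes called lower in each. Without input 2, 1 was, against 0.236% of all genes.

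H2A, which pairs with H2B in the nucleosome, lay between. All 12 tested members had a negative fold change, and for 7 of them no ORC1 IP value reached an input. HIST1H2AB (now H2AC4, chr6:26033092-26033618, minus strand) had 3631, 11342 and 6615 in the inputs and 2317, 959 and 999 in the ORC1 IPs, with a log2 fold change of -2.31 ± 0.52 (SE, adjusted p = 0.0337). HIST2H2AC was the other member called, at -2.30 ± 0.53 (SE, adjusted p = 0.037). HIST1H2AH, the H2A gene with the highest mean over all 6 libraries, was not called. It had 8524, 25838 and 15430.4 in the inputs and 17780.0, 3362 and 5107 in the ORC1 IPs, with a log2 fold change of -1.16 ± 0.73 (SE, adjusted p = 0.384), and its ORC1 IP 1 value exceeded 2 of the inputs.

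HIST1H2AG had 9177, 25698 and 16973 in the inputs and 8725, 3304 and 3121 in the ORC1 IPs, and HIST1H2AC had 7859, 23982 and 16148 in the inputs and 7211, 3080.0 and 3338 in the ORC1 IPs. In these genes the groups did not overlap, but ORC1 IP 1 was within a small distance of input 1. Their log2 fold changes were -1.82 ± 0.63 (SE, adjusted p = 0.115) for HIST1H2AG and -1.79 ± 0.61 (SE, adjusted p = 0.111) for HIST1H2AC, which limma did not call. HIST1H2AI (-1.68, adjusted p = 0.112) and HIST1H2AJ (-1.96, adjusted p = 0.0705) were not called by limma either, and shared 63.5% and 66.3% of their stretches with other genes. HIST1H2AM, at 9.5, 17.3 and 10.5 in the inputs and 5.76, 18.0 and 3.73 in the ORC1 IPs, had the smallest H2A difference, -0.62 ± 0.69 (SE, adjusted p = 0.648), and was close to the filter. DESeq2 called HIST1H2AG (adjusted p = 0.0134), HIST1H2AC (0.00844), HIST1H2AI (0.0405) and HIST1H2AJ (0.00859) lower. Both limma calls in H2A were lost without input 2, input 3 or ORC1 IP 3, and in edgeR with the replicate block. The count was 5 without ORC1 IP 1, 6 without ORC1 IP 2 and 8 in DESeq2, against 0.721%, 6.38% and 2.94% of all genes called lower.

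In H2B the ORC1 IPs disagreed with each other. All 15 members were below all inputs in ORC1 IP 2 and in ORC1 IP 3, but only 3 of 15 were in ORC1 IP 1. Over all genes tested, 38.2%, 32% and 35.6% were below all inputs in ORC1 IPs 2, 3 and 1. HIST1H2BD had 11174, 35261 and 22444 in the inputs and 23666, 4944 and 6172 in the ORC1 IPs, with a log2 fold change of -1.20 ± 0.77 (SE, adjusted p = 0.396). HIST2H2BE had 4854, 15182 and 9882 in the inputs and 15066, 2000.1 and 3501 in the ORC1 IPs, with a log2 fold change of -0.93 ± 0.73 (SE, adjusted p = 0.498). In both genes ORC1 IP 1 lay among the inputs and the other ORC1 IPs below them.

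HIST1H2BJ (now H2BC11, chr6:27125897-27132795, minus strand) was the H2B member that limma called. It had 5882, 20466 and 12272 in the inputs and 2691, 1638 and 1114 in the ORC1 IPs, with a log2 fold change of -2.74 ± 0.55 (SE, adjusted p = 0.0237), so that its ORC1 IP 1 value was below all inputs as in H3 and H4. The call was lost without input 2 (adjusted p = 0.109), without ORC1 IP 3 (adjusted p = 0.099) and without input 3, and in edgeR with the replicate block (adjusted p = 0.0577). HIST1H2BC (-1.53, adjusted p = 0.233), HIST1H2BO (-1.80, adjusted p = 0.129) and HIST1H2BK (-1.70, adjusted p = 0.157) were not called by limma, and DESeq2 called HIST1H2BO (adjusted p = 0.0432). HIST1H2BE, at 45.4, 109 and 54.996 in the inputs and 135, 20.3 and 17.1 in the ORC1 IPs, had the smallest H2B difference at -0.81, and its ORC1 IP 1 value was the highest of the 6. The count of 1 H2B member was 4 without ORC1 IP 1 and 4 in DESeq2, and 2 without ORC1 IP 2. Of all genes, 0.721%, 2.94% and 6.38% were called lower in these fits, in the same order.

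H1, the linker histone, was the class with the highest median fold change, and its main genes had the largest SEs of the members. HIST1H1E (H1.4, now H1-4, chr6:26156329-26157115, plus strand) had 25755, 84156 and 55401 in the inputs and 116374, 12008 and 26875 in the ORC1 IPs, with a log2 fold change of -0.56 ± 1.13 (SE, adjusted p = 0.821). Its highest value of all was in ORC1 IP 1 and its lowest in ORC1 IP 2, and without ORC1 IP 2 the fold change was 0.18. HIST1H1C (H1.2, now H1-2, chr6:26055740-26056470, minus strand) had 24787, 84700.2 and 54569.9 in the inputs and 83712, 8962 and 20387 in the ORC1 IPs, with a log2 fold change of -0.97 ± 1.07 (SE, adjusted p = 0.651). Here ORC1 IP 1 was close to input 2, and ORC1 IPs 2 and 3 were below all inputs.

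The other tested H1 genes were low but followed the same order of libraries within each group. HIST1H1T, known as a testis variant, had 74.9, 244 and 105 in the inputs and 207, 38.9 and 47.0 in the ORC1 IPs (-0.77, adjusted p = 0.525). HIST1H1A had 13.7, 50.4 and 15.2 in the inputs and 43.8, 3.48 and 5.22 in the ORC1 IPs (-1.10, adjusted p = 0.495). Per kb of transcript, HIST1H1C and HIST1H1E had the highest mean normalised counts of the members, 74809.5 and 70018 in inputs and 51555 and 65759 in ORC1 IPs. On the same scale HIST1H3B went from 55707 in inputs to 5825 in ORC1 IPs and HIST1H4C from 43622 to 3235. The median of the H1 fold changes was -1.68 without ORC1 IP 1 and -0.28 without ORC1 IP 2. No H1 member was called in either fit, against 0.721% and 6.38% of all genes called lower.

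The composition of histone RNA within a library does not depend on the scaling between libraries, and it was compared next. In the inputs the composition was nearly constant although their total histone RNA differed: H1 made up 20.8%, 22.2% and 22.8% of the histone counts in the inputs, and H4 16.5%, 15.3% and 16.1%. In the ORC1 IPs, H1 made up 52.0%, 25.5% and 42.7% and H4 2.73%, 12.3% and 5.70% per replicate. H3 was 18.0% ± 0.424 for the inputs and 8.57% ± 4.97 for the ORC1 IPs, and H2B 25.1% ± 0.213 and 27.0% ± 0.891 (SD, n = 3). The shares of H1, H2B, H3 and H4 did not overlap between groups, and in these classes ORC1 IP 2 was the IP nearest to the inputs. Those of H2A did overlap, at 19.6%, 18.7% and 18.6% in the inputs and 14.2%, 21.9% and 16.4% in the ORC1 IPs. No p is given for these sums over members.

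The same was seen in the ratio of H1 to H4 counts. It was 1.26, 1.45 and 1.41 in the inputs and 19.1, 2.08 and 7.49 in the ORC1 IPs. The H2B to H4 ratio was 1.53, 1.65 and 1.55 in the inputs and 9.79, 2.14 and 4.91 in the ORC1 IPs. Within H3 and H4, the pair of classes that are lowest, the ratio of H3 to H4 moved less, from between 1.08 and 1.21 in inputs to 1.61, 1.15 and 1.27 in ORC1 IPs. The ratio of H2A to H2B was 0.775, 0.742 and 0.748 in the inputs and 0.531, 0.833 and 0.585 in the ORC1 IPs, so that the ORC1 IPs lay on both sides of the inputs.

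**Figure D3:**
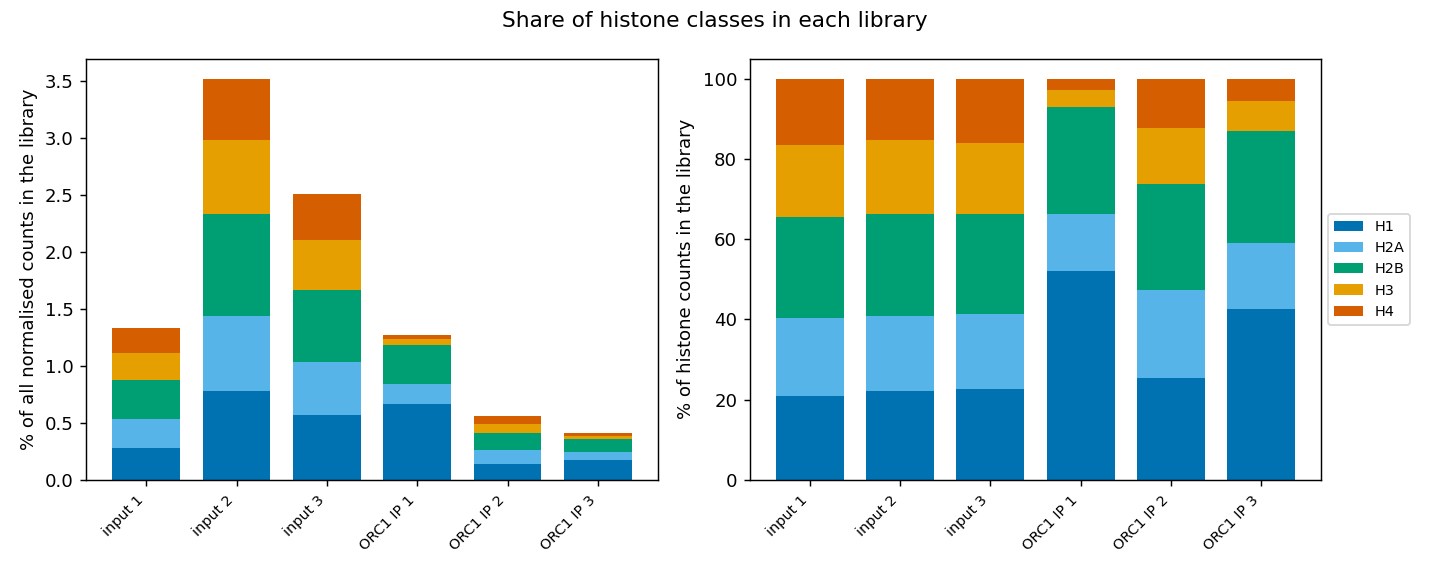
Stacked bars per library: on the left the share of each histone class in all normalised counts of the library, on the right its share in the histone counts alone, both in percent. H1 is the largest class in ORC1 IPs 1 and 3, at 52.0% and 42.7%, and H4 the smallest in every library, down to 2.73% in ORC1 IP 1.

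GAA content was compared because the study looked at GAA repeats in RNA that comes with ORC1. GAA was counted per kb of canonical transcript, and GAAGAA as a short tandem form, both on the transcript strand, where each GAAGAA also counts as GAA matches. GAAGAA is shorter than the repeat that the study's antisense oligonucleotide targeted. The study's own GAA motif was not searched, so these counts do not show which members hold it. H1 transcripts held the most GAA, with a median of 34.3 per kb over 5 members, and all 5 held GAAGAA. H2B had a median of 18.5 per kb, and 14 of 15 members held GAAGAA. H3 had 13.7 per kb and 6 of 9 members, whereas H4 (11.4 per kb) and H2A (9.49 per kb) had no member with GAAGAA. Of protein-coding canonical transcripts under 1000 nt, 38.7% held GAAGAA, against 48.1% of members, and 78.0% of all protein-coding ones did. Stretches of 30 bases around the densest GAA are shown for the main H1 genes, for HIST1H2BD and for HIST1H2BJ, the H2B gene called lower, with each GAA in capitals. They lie at chr6:26055959-26055988, minus strand (HIST1H1C), chr6:26156429-26156458, plus strand (HIST1H1E), chr6:26158226-26158255, plus strand (HIST1H2BD) and chr6:27132677-27132706, minus strand (HIST1H2BJ) on GRCh38.
HIST1H1C: GAAGAAgagcgctaaGAAaacaccGAAGAA
HIST1H1E: ccctgccgaGAAgactcccgtGAAGAAGAA
HIST1H2BD: gactaaggctcaGAAGAAggacggGAAGAA
HIST1H2BJ: caaGAAggcggtgactaaggcgcaGAAGAA

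Over the 48 tested members, log2 fold change and GAA per kb had a Spearman rho of 0.39 and a Pearson r of 0.43. Over 16062 tested genes matched to the annotation the rho was 0.32. Within classes the sign was not constant, with a rho of -0.315 in H2A (n = 12), 0.314 in H2B (n = 15), 0.571 in H3 (n = 8) and -0.427 in H4 (n = 9). HIST1H2BJ had 18.8 GAA per kb and a fold change of -2.74, whereas HIST1H2BD with 18.5 per kb had -1.20. Transcript length ran from 387 nt in H4 to 797 nt in H1 and 2224 nt for HIST2H2BE. Its rho with the fold change was 0.49 over members and 0.35 over all matched genes. The sign of the length rho varied by class too: -0.35 in H2A, 0.11 in H2B, -0.26 in H3 and 0.76 in H4. GC content had a rho of -0.14 over members. These values describe genes measured in the same 6 libraries, which are not independent, and the part of GAA or length in the differences between classes was not tested.

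**Figure D4:**
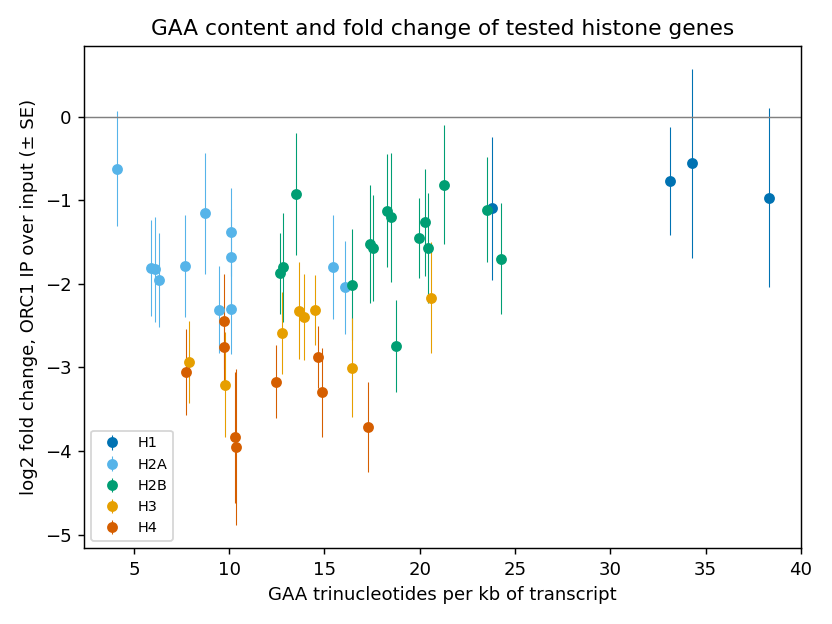
GAA trinucleotides per kb of canonical transcript against the log2 fold change of ORC1 IP over input (± SE) for the 48 tested histone genes, coloured by class. H1 lies at the upper right, above 23 GAA per kb, and H2A and H4 share a range of low GAA content but lie apart on the vertical axis.

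A list of 7 members known to make polyadenylated mRNA as well comprised HIST1H1C, HIST1H2AC, HIST1H2BC, HIST1H2BD, HIST1H2BK, HIST2H2BE and HIST4H4. In limma HIST4H4 was called lower and the other 6 were not, whereas DESeq2 called HIST1H2AC as well. Their median log2 fold change was -1.53, against -2.01 over the 41 other tested members, of which 18 were called. Of all genes tested, limma called 1.42% lower. The list differs from the rest in its classes, since it holds 4 H2B genes and no H3 gene. Within H2B the median was -1.37 for the 4 listed genes and -1.57 for the 11 others, and in H4 HIST4H4 had -2.76 against a median of -3.23 for the 8 others. In H2A HIST1H2AC had -1.79 against -1.81 for the 11 others. In H1 HIST1H1C had -0.97, against -0.56 for HIST1H1E, -0.77 for HIST1H1T and -1.10 for HIST1H1A, so the direction was not the same in every class.

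Calls were also counted by genomic cluster. Over all genes tested, limma called 1.42% lower, and 9.45% were lower at an unadjusted p under 0.05. The HIST1 cluster on chromosome 6 held 43 members, of which 16 of 40 tested were called lower, with a median log2 fold change of -1.85. The 5 HIST2 members on chromosome 1 had a median of -2.04 with 2 calls, HIST2H2AC and HIST2H3D, and the 2 tested HIST3 members a median of -1.69 with no call (2 at an unadjusted p under 0.05). Of the 34 members in which under 10% of 50-nt stretches occurred in other genes, 31 were tested and 14 called lower, with a median of -2.04. The 4 members below the filter were HIST1H1B, HIST1H2AD, HIST3H3 and HIST1H4I, which had normalised counts of 8.44 or less in every library.

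Genes that act on histone mRNA were compared in the same fit. Of 30 tested genes for transcription, processing, uridylation and decay of histone mRNA, 0 were lower and 3 higher in the ORC1 IPs, against 1.42% and 2.28% of all genes, with a median log2 fold change of 0.05. The 3 were ZCCHC6 and ZCCHC11, which add uridines to RNA ends, and CASP8AP2, which acts in 3′ end processing of histone mRNA. ZCCHC6 had 902, 566 and 443 in the inputs and 4555, 1356 and 3709.9 in the ORC1 IPs, with a log2 fold change of 2.22 ± 0.48 (SE, adjusted p = 0.0302). CASP8AP2 had 1382, 805 and 470.4 in the inputs and 2497, 2869.8 and 3257 in the ORC1 IPs, with a log2 fold change of 1.82 ± 0.43 (SE, adjusted p = 0.0384). ZCCHC11 had 1331, 567 and 494 in the inputs and 1988, 2074 and 3798 in the ORC1 IPs, with a log2 fold change of 1.80 ± 0.45 (SE, adjusted p = 0.048). In these genes all ORC1 IP values were above all inputs. At an unadjusted limma p under 0.05, 3 genes of the list were lower and 6 higher, against 9.45% and 12.2% of all genes. Counting both directions, the 3 calls became 0 without input 2, without input 3, without ORC1 IP 1 or without ORC1 IP 3. Without ORC1 IP 2 there were 8, lower or higher, in a fit with 1053 lower and 1965 higher calls among all 16513 genes.

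Of 21 tested histone chaperones and deposition factors, 0 were lower and 1 was higher, against 1.42% and 2.28% of all genes, with a median log2 fold change of 0.52. It was ATRX, which acts with DAXX in depositing H3.3, at 1671, 1098 and 721 in the inputs and 6139, 3299 and 10224 in the ORC1 IPs, with a log2 fold change of 2.43 ± 0.49 (SE, adjusted p = 0.0239). NAP1L1, a chaperone of H2A and H2B, was not called at 2.01 ± 0.62 (SE, adjusted p = 0.0893), nor was ASF1B, a chaperone of H3 and H4, at -1.10 ± 0.36 (SE, adjusted p = 0.101). In contrast to ATRX, every ASF1B value in the ORC1 IPs was below every input value. The 1 call was lost without input 2, input 3 or ORC1 IP 3. Without ORC1 IP 2, 8 genes were called, counting both directions. That fit called 1053 genes lower and 1965 higher among all 16513.

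Histone genes outside the replication-dependent clusters, listed as replication-independent, were compared last. None of 12 tested was called by limma, against 1.42% of all genes lower and 2.28% higher, nor by edgeR. DESeq2 called 1, in a fit with 677 lower and 1254 higher calls among 23013 genes. At an unadjusted limma p under 0.05, 2 were lower and 0 higher, against 9.45% and 12.2% of all genes. The median log2 fold change was -0.40. H2AFZ, which encodes H2A.Z, had 8903, 9547 and 12582 in the inputs and 2710.4, 3765 and 4321 in the ORC1 IPs, with a log2 fold change of -1.53 ± 0.48 (SE, adjusted p = 0.0907), and its groups did not overlap. H3F3C had a log2 fold change of -0.86 ± 0.38 (SE, adjusted p = 0.216). CENPA, the centromeric H3, had 409, 378 and 426 in the inputs and 174, 426 and 186 in the ORC1 IPs, with a log2 fold change of -0.75 ± 0.40 (SE, adjusted p = 0.307), and its ORC1 IP 2 value was at the level of the highest input. These differences were not tested against those of the replication-dependent members.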

How the data were processed

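Native ORC1 RIP-seq of HCT116 nuclei gave 3 input and 3 ORC1 IP libraries, grouped by the labels. According to the submitters' processing notes and the methods of the study, reads were trimmed with Trimmomatic, aligned with STAR to hg19 and counted per gene with featureCounts. The counting of reads that match several genes and the use of strand are not given in the sources used. The values that the authors deposited are a signal, made by dividing gene counts by 1 size factor per library. Values were whole multiples of the smallest nonzero value of a library within a tolerance of 0.001 for 100.0% of values, so whole reads were recovered. Columns of the authors' own comparison (fold changes, test statistics and p-values) were not used.

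A model of log2(normalised count + 1) was fitted to 16513 genes with a mean of at least 10, using limma 3.58.1 in R 4.3.3 (moderated test with an intensity trend, no block) and Benjamini-Hochberg adjustment over all genes tested. A fold change on this scale understates changes of low genes and is relative to the other RNA of the library. Scripts were tested on simulated data. Alternatives were pseudocounts of 0.5 and 5, no filter and a mean of 50, total count, TMM and upper quartile scaling, edgeR 4.0.16 and DESeq2 1.42.0 on recovered reads, a replicate block, pseudogenes added, a duplicated HIST2 gene left out, and each library left out. The labels say nothing of separate cultures, so p-values measure the spread between these libraries. Same-numbered libraries' deviations from their group means correlated at -0.32, -0.24 and 0.22 (replicates 1 to 3). The labels tie each ORC1 IP to the input of the same RIP replicate, although these correlations do not show it, so values with the replicate block are given where they change a call.

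Members were matched to GENCODE v44 (GRCh38) by Ensembl identifier for 29 and through RefSeq synonyms for 23. No coordinates on hg19 are given. Named members were the 5 most abundant and the lowest and highest fold change of each class, the polyadenylated list, and 3 genes with the smallest p of each other list. Members, lists and tests were chosen with earlier results of these data known.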

Additional observations from a re-analysis of the deposited data

How the results depend on the processing

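No member was called higher in any fit, and class medians of log2 fold change stayed negative in each. The number of members called lower, 19, was 11 in edgeR with the replicate block, 17 in limma with it, 17 in edgeR without it and 28 in DESeq2. With 1 library left out it ranged from 2 to 25. The lower calls over all genes, 234 in the main fit, were 184, 191, 216 and 677 in the same order of tools. With 1 library left out they ranged from 23 to 1053. The genes called in either direction in the list for histone mRNA metabolism (3) were 1 with total count scaling and 5 in DESeq2, and 0 to 8 with 1 library left out. Those of the chaperone list (1) were 5 in DESeq2 and 0 to 8 with 1 library left out, and those of the replication-independent histones (0) were 1 in DESeq2 and 0 to 2. Over all genes, 234 were called lower and 376 higher in the main fit. These counts were 96 and 87 with total count scaling and 677 and 1254 in DESeq2. With 1 library left out, 23 to 1053 genes were called lower and 6 to 1965 higher. The log2 fold change of HIST1H1E was 0.18 without ORC1 IP 2 and -1.46 without ORC1 IP 1. The cause of these shifts was not tested. Total count scaling moved the median over all genes from 0.01 to -0.19 and that of the members from -1.85 to -2.06. Of 524 values of named members under the alternatives, 463 kept their direction and side of the threshold, 49 lost a call, 11 gained one and 1 changed sign. The share of histone counts differed between ORC1 IPs and inputs by -1.71 percentage points, and by -2.27 to -1.17 with 1 library left out. Same-numbered libraries did not deviate together throughout, and input 2 did so with ORC1 IP 1 (0.50). With 3 libraries in each group, members of H2A and H2B that were not called have wide intervals, and 6 tested members had a mean under 50.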
